A study of Mus musculus with 4 samples.

Results

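Glycolysis turns glucose into pyruvate and lactate, and HIF-1 is the transcription factor that raises many of its genes when oxygen is low or when macrophages are activated. The data were examined for 38 glycolysis and HIF-1 target genes, chosen by name and found by their symbols among the 54532 entries of the deposited gene count table. They comprise Hif1a, prolyl hydroxylases that sense oxygen, glucose and lactate transporters, the enzymes from hexokinase to lactate dehydrogenase, and genes outside glycolysis that HIF-1 is known to induce. RNA was sequenced from WT mouse macrophages of the peritoneal fluid, which the methods of the study describe as elicited with thioglycollate in BALB/c mice. The cells were kept in normal medium or with 30% 4T1-CM, the supernatant of 4T1 cells, a mammary carcinoma line of the mouse, and received DMSO, the vehicle, or 10 µM CH223191, an antagonist of the aryl hydrocarbon receptor AHR. Each of the 4 conditions has 1 library, the labels do not say how long the treatment lasted, and the culture is not described as hypoxic.

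HIF-1 is made of HIF-1α, the product of Hif1a, and its partner ARNT. In the presence of oxygen, prolyl hydroxylases mark HIF-1α for binding by VHL and for degradation, so that the amount of the protein need not follow its mRNA. AHR uses the same partner, ARNT, for binding DNA, and the comparison of CH223191 with DMSO shows how these genes stood with this antagonist, whose action on AHR in these cultures was not examined here.

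The counts summed to between 15535405 and 17557127 reads per library, and 13715 genes that reached 10 reads in any library were kept. All 38 members passed this filter, and levels are in CPM, the reads scaled by library total and TMM factor. Wherever 4 values of a gene follow each other, they are those of DMSO and CH223191 for normal medium and then of DMSO and CH223191 for 4T1-CM. Where 2 log2 ratios for 4T1-CM are given, the former is that with DMSO and the latter that with CH223191. All 8 macrophage markers were kept, and their summed level was 14310, 18510, 40680 and 43480 CPM in this order. Lyz2 alone had 11900, 15200, 32980 and 35600 CPM of it. The log2 ratios of the 8 for 4T1-CM ranged from 0.41 to 3.52 with DMSO and from 0.07 to 3.83 with CH223191. Of the markers of B cells, mesothelial cells and mast cells, none was kept, and Krt8, Krt18, Krt19 and Epcam of the epithelial tumor cells were not kept either, while Cdh1 had 3, 7, 16 and 20 reads. The summed level of 6 fibroblast markers was 63.1, 30.1, 149 and 128 CPM, and that of 9 neutrophil markers was 67.6, 74.7, 242 and 181 CPM, with Ly6g, S100a9, Retnlg, Camp and Ltf under the filter. Cd2 with 3 to 23 reads was the only T cell marker kept, and Siglecf, at 251, 221, 105 and 88 reads, the only eosinophil marker. The part of other cells in the results below was not tested. With 1 library per condition there is no replicate check, so a gene is called at a 2-fold difference, and the 95% interval of a log2 ratio, an exact Clopper-Pearson interval for how reads divide between 2 libraries, covers counting error only.

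With 4T1-CM, 16 of the 38 genes were at least 2-fold higher with DMSO, beside 12.2% of all genes kept, and 16 were at least 2-fold higher with CH223191, beside 12.0%. No library is common to these 2 comparisons. In both, 13 members were at least 2-fold higher, beside 8.18% of all genes: Hif1a, Egln3, Slc2a1, Slc16a3, Pfkl, Pfkfb3, Gapdh, Pgk1, Bnip3, P4ha2, Ero1l, Ankrd37 and Ddit4. No member was at least 2-fold lower, while 6.12% of all genes were with DMSO, 7.86% with CH223191 and 3.38% in both. The median log2 ratio of the 38 genes was 0.77 with DMSO and 0.81 with CH223191, beside 0.01 and 0.02 over all genes kept. Adm, among the 16 with DMSO, reached 10 reads with 4T1-CM alone, so that its direction was fixed by the filter. A filter of 10 reads in every library, which leaves out Adm, gave 16 members with DMSO and 17 with CH223191. Beside them were 849 and 868 of 11765 genes, and the medians of the members were 0.75 and 0.83. The genes together took 1.27%, 1.29%, 1.78% and 1.80% of the reads of the 4 libraries. Since a level is a share of the library, a larger share of cells with a gene and more of its RNA per cell cannot be told apart. The reads of Gapdh and Eno1 were mostly or partly assigned to copies of these genes, as described further on, and with the reads of copies added 12 members were at least 2-fold higher in both comparisons.

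**Figure D1:**
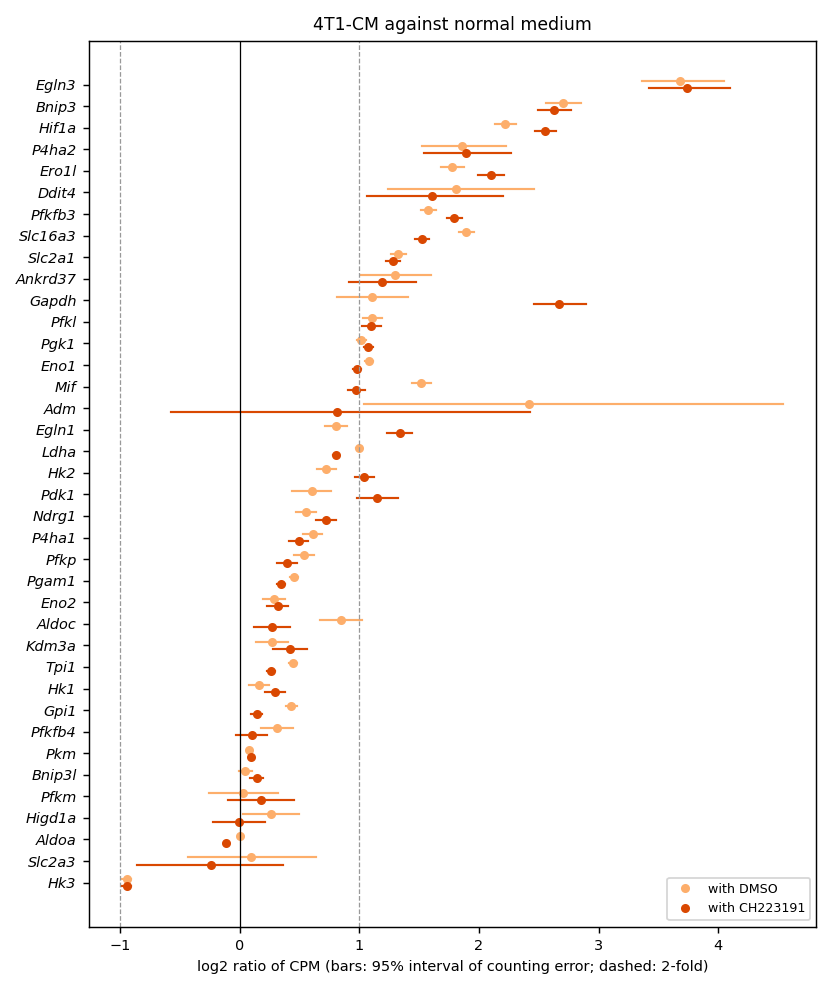
Log2 ratio of each member between 4T1-CM and normal medium on the horizontal axis, with DMSO (light) and with CH223191 (dark), ordered by the smaller of the 2 ratios. Bars are 95% intervals of counting error, dashed lines mark a 2-fold difference, and Egln3 stands highest at 3.68 and 3.74 and Hk3 lowest at -0.94 in both.

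Hif1a, on chromosome 12 (GRCm38, 73901375 to 73947530, plus strand), had 1331 reads with DMSO and 1173 with CH223191 when kept in normal medium, against 6818 with DMSO and 7051 with CH223191 under 4T1-CM. Both libraries of 4T1-CM were thus above both of normal medium. The log2 ratio for 4T1-CM was 2.22 with DMSO (95% interval 2.14 to 2.31) and 2.56 with CH223191 (2.47 to 2.65), or 4.66-fold and 5.88-fold. Egln3, on the minus strand of chromosome 12 (54178981 to 54203860), encodes a prolyl hydroxylase that HIF-1 itself induces. It had 77, 79, 1094 and 1085 reads, the largest ratio among the members, with a log2 ratio of 3.68 (3.36 to 4.05) with DMSO and 3.74 (3.42 to 4.10) with CH223191. Egln1, the main oxygen sensor of the family, had 1528, 1045, 2933 and 2699 reads. Its log2 ratio for 4T1-CM was 0.81 with DMSO and 1.34 with CH223191, and the library of normal medium with CH223191 was the lowest of the 4.

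Among the genes of the same system outside the members, 7 of 8 were kept and 1 of them, Vhl, was at least 2-fold higher in both comparisons. Vhl, whose product marks hydroxylated HIF-1α for degradation, had 419, 346, 1102 and 973 reads and log2 ratios of 1.26 and 1.46. Epas1, which encodes HIF-2α, had 3122, 3314, 2775 and 3014 reads with log2 ratios of -0.30 and -0.17, and Arnt had 782, 807, 960 and 1068 reads with log2 ratios of 0.16 and 0.37. Egln2, the third prolyl hydroxylase, was lower with 4T1-CM by less than 2-fold (log2 ratios of -0.84 and -0.72). The median of these 7 genes was -0.31 with DMSO and -0.27 with CH223191.

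**Figure D2:**
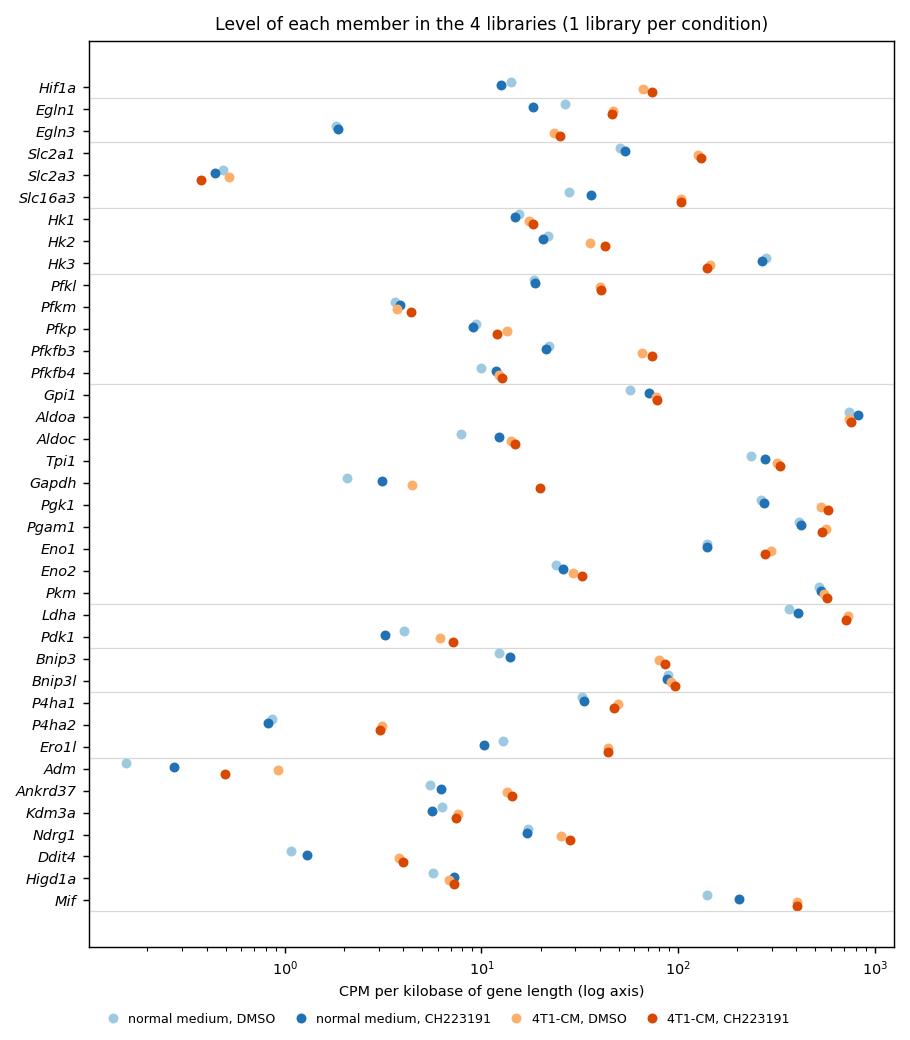
Level of each member in the 4 libraries, in CPM per kilobase of gene length on a log axis, grouped by role from the top. Each point is 1 library, and the 2 libraries of 4T1-CM lie to the right of both of normal medium for Hif1a, Egln3, Slc2a1, Slc16a3, Bnip3 and Ero1l, and to the left for Hk3.

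HIF-1 binds DNA at a core of ACGTG or GCGTG, and GCGTG is also the core bound by AHR with ARNT. In the RefSeq promoter windows of GRCm38.p6, which run from 250 bases before to 50 bases after a gene's start, 35 of the 38 members were matched with 50 windows, Ero1l under the name Ero1a. No window was matched for Slc2a3, Bnip3l and Ndrg1. The promoters of Egln3, Bnip3 and Hif1a, the 3 members with the largest ratios when ranked by the smaller of their 2 ratios for 4T1-CM, and of Hk3, the member that was lower, are shown for their cores. Each is the 250 bases before the start, read 5′ to 3′ along the gene's strand, and capitals mark ACGTG or GCGTG on either strand, so that a core on the other strand reads CACGT or CACGC.
Egln3: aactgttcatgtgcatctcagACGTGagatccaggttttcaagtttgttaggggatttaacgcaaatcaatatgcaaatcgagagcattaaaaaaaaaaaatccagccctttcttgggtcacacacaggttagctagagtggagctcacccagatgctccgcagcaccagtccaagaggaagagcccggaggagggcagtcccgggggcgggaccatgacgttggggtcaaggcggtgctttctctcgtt
Bnip3: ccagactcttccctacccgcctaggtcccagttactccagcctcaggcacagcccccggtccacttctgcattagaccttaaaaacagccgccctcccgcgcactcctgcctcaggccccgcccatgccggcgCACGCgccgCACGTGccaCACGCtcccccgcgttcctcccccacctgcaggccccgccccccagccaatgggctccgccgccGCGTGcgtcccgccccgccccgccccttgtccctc
Hif1a: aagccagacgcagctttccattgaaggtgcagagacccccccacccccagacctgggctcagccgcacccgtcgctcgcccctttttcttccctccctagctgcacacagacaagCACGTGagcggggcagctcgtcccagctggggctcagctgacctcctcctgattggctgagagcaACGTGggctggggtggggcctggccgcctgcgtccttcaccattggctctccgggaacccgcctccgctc
Hk3: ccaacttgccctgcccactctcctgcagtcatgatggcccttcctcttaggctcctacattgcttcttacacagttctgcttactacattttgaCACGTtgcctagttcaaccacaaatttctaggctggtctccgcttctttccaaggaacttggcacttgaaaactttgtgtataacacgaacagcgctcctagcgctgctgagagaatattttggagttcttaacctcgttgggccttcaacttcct

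The Egln3 sequence (chr12:54203875-54204124, minus strand) held a single ACGTG, from -229 to -225 before the start, and lacked GCGTG. The Bnip3 sequence (chr7:138909507-138909756, minus strand) held the first core 2 times and the second core 3 times between -117 and -31. Both ACGTG of Bnip3 come from the 2 strands of a single palindrome, which is also an E-box, and the same applies to 2 of the 3 in Hif1a (chr12:73907617-73907866, plus strand). The Hk3 sequence (chr13:55021386-55021635, minus strand) held 1. The core ACGTG was thus present in the promoter of the member that was lower as well as in those of the 3 members with large ratios.

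Over the whole windows of 300 bases, ACGTG on either strand was in 28 of the 50 windows of members (56.0%) and in 19.6% of all 32851 windows. GCGTG was in 28 of the 50 (56.0%) and in 32.4% of all windows. Of the 14 windows of the 13 members that were at least 2-fold higher in both comparisons, 13 held ACGTG, and of the 36 windows of the other 22 members, 15 did (41.7%). GCGTG was in 9 of the 14 windows (64.3%) and in 19 of the 36 (52.8%). The other 22 members had more windows per gene, so these shares of windows are not shares of genes. Among them Hk1, Aldoc, Ldha and Pkm held ACGTG in a window and lacked it in another, which lowers the share by window. By gene, 25 of the 35 matched members held ACGTG in at least 1 window. The 13 members include Gapdh, which was under 2-fold with the reads of its copies added. The windows of members also held more CG dinucleotides, of which both cores contain 1. Their mean was 25.2 per window for the 13 members, 18.1 for the other members and 12.4 for all windows, and the part of base composition in the counts of cores was not tested. Windows of a gene can overlap, and the members were chosen as known targets of HIF-1, so these shares describe the windows and are not sites of binding.

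Glucose enters the cell through GLUT1, encoded by Slc2a1 on chromosome 4 (119108711 to 119137983, plus strand), and lactate leaves it through MCT4, encoded by Slc16a3 on chromosome 11 (120948480 to 120960868, plus strand). Slc2a1 had 2819, 2980, 7771 and 7409 reads. Its log2 ratio for 4T1-CM was 1.33 (1.27 to 1.39) with DMSO and 1.28 (1.22 to 1.35) with CH223191. Slc16a3 had 2367, 3042, 9678 and 8945 reads, with log2 ratios of 1.90 (1.83 to 1.96) and 1.53 (1.47 to 1.59). Both transporters were thus higher in each library of 4T1-CM than in each of normal medium. Slc2a3, which encodes the glucose transporter GLUT3, was low throughout at 56, 51, 66 and 44 reads, and both of its intervals for 4T1-CM included 0. Slc16a1, the lactate transporter MCT1 outside the members, had log2 ratios of 0.59 and 0.64.

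Hexokinases trap glucose in the cell as glucose 6-phosphate, and their isoenzymes went different ways. Hk3 had 16440, 15684, 9393 and 8342 reads, with both libraries of 4T1-CM below both of normal medium. Its log2 ratio for 4T1-CM was -0.94 (-0.98 to -0.91) with DMSO and -0.94 (-0.98 to -0.90) with CH223191, the only member whose interval lay below 0 in both. Hk2, the isoenzyme that HIF-1 induces, had 2062, 1947, 3742 and 4093 reads with log2 ratios of 0.72 and 1.04, and Hk1 had 2120, 2017, 2604 and 2530 reads with log2 ratios of 0.16 and 0.30. Per kilobase of gene length, Hk3 made up 88.3% of the level of the 3 hexokinases in both libraries of normal medium and 73.2% and 69.8% in those of 4T1-CM. The share of Hk2 was 6.83% and 6.76% without and 18.0% and 21.1% with 4T1-CM. The summed level was 318 and 303 CPM per kilobase without and 199 and 200 with 4T1-CM, so the 3 genes together were lower with 4T1-CM.

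The phosphofructokinase step commits sugar to glycolysis. Pfkl, on chromosome 10 (77986947 to 78010083, minus strand), had 1966, 1995, 4660 and 4374 reads and log2 ratios for 4T1-CM of 1.11 (1.03 to 1.19) with DMSO and 1.10 (1.03 to 1.18) with CH223191. Pfkp had smaller ratios of 0.54 and 0.40, and the intervals of Pfkm, with 194 to 237 reads, included 0 in both. Pfkl made up 58.7% and 59.2% of the level of the 3 isoenzymes per kilobase without and 69.8% and 71.2% with 4T1-CM. Pfkfb3, on chromosome 2 (11471433 to 11554077, minus strand), makes fructose 2,6-bisphosphate, the activator of this step. It had 2646, 2567, 8683 and 9094 reads, with log2 ratios of 1.58 (1.52 to 1.64) and 1.79 (1.73 to 1.86). Its isoenzyme Pfkfb4 had 769 to 1050 reads and log2 ratios of 0.31 and 0.10.

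Of the enzymes between these steps and pyruvate, Pgk1 and Eno1 had ratios near 2-fold. Pgk1, the first enzyme of the chain to make ATP, had 9420, 9745, 20952 and 21002 reads, with log2 ratios of 1.02 (0.98 to 1.05) and 1.08 (1.04 to 1.11). Eno1, an enolase, had 11961, 11977, 27776 and 24145 reads, with log2 ratios of 1.08 and 0.98, while Eno2 had log2 ratios of 0.29 and 0.32. Tpi1 had log2 ratios of 0.45 and 0.26, Pgam1 of 0.46 and 0.35, and Gpi1 of 0.43 and 0.14, and the 6 intervals lay above 0. The most abundant of these genes differed little. Aldoa had 34216, 37960, 37752 and 35955 reads with log2 ratios of 0.01, or -0.03 when scaled by total counts, and -0.11, and Pkm, the pyruvate kinase of macrophages, had 41724, 42307, 48405 and 46227 reads with log2 ratios of 0.08 and 0.10. Aldoc, the minor aldolase, had 410, 638, 811 and 787 reads with log2 ratios of 0.85 and 0.27.

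Ldha, on chromosome 7 (46841475 to 46855627, plus strand), reduces pyruvate to lactate. It had 19329, 21426, 42387 and 38230 reads, with log2 ratios of 0.998 (0.97 to 1.02) with DMSO, just under 2-fold, and 0.80 (0.78 to 0.83) with CH223191. Pdk1, a kinase that inhibits pyruvate dehydrogenase, had 501, 398, 836 and 904 reads with log2 ratios of 0.60 and 1.15. Both genes were thus higher in each library of 4T1-CM. Over the 17 enzymes from hexokinase to lactate dehydrogenase the median was 0.46 with DMSO and 0.32 with CH223191, and 3 of 17, Pfkl, Gapdh and Pgk1, were at least 2-fold higher in both, beside 8.18% of all genes. Gapdh was under 2-fold once the reads of its copies were added, with ratios of 0.65 and 0.75. Over the other 21 members, Adm included, the median was 1.33 and 1.19, and 10 of 21 were at least 2-fold higher in both.

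Outside glycolysis, Bnip3 encodes a receptor for the removal of mitochondria by autophagy. It lies on chromosome 7 (138890836 to 138909519, minus strand) and ranked second among the members by the smaller of its 2 ratios for 4T1-CM. It had 441, 502, 3154 and 3169 reads, with log2 ratios of 2.70 (2.56 to 2.85) with DMSO and 2.63 (2.49 to 2.77) with CH223191. Its relative Bnip3l had 5364 to 6190 reads and log2 ratios of 0.05 and 0.14. P4ha2, a catalytic subunit of the collagen prolyl hydroxylase on chromosome 11 (54100095 to 54131665, plus strand), had 85, 81, 341 and 308 reads with log2 ratios of 1.86 (1.52 to 2.23) and 1.89 (1.54 to 2.27), and P4ha1 had log2 ratios of 0.61 and 0.50. Collagen genes among the fibroblast markers were also higher with 4T1-CM, Col1a1 with 359, 118, 958 and 704 reads, and their part in the ratio of P4ha2 was not tested. Ero1l, which forms disulfide bonds in the endoplasmic reticulum, lies on chromosome 14 (45283087 to 45318771, minus strand) and had 1078, 862, 4063 and 3776 reads, with log2 ratios of 1.78 (1.68 to 1.88) and 2.10 (1.99 to 2.21).

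Ankrd37 had 134, 153, 363 and 358 reads with log2 ratios of 1.30 and 1.19, and Ddit4, an inhibitor of mTORC1, had 30, 36, 117 and 113 reads with log2 ratios of 1.81 and 1.61. Mif, a cytokine of macrophages, had 1663, 2426, 5241 and 4876 reads with log2 ratios of 1.52 with DMSO and 0.98 with CH223191. Ndrg1, Kdm3a and Higd1a differed less, with log2 ratios of at most 0.72. Adm, which encodes the vasodilator adrenomedullin, had 4, 7, 26 and 13 reads, and its log2 ratio was 2.42 (1.04 to 4.54) with DMSO and 0.82 (-0.57 to 2.43) with CH223191. It passed the filter of 10 reads through the 4T1-CM libraries alone, and at so few reads its ratio is the least certain of the 38.

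The ratios for 4T1-CM with DMSO and with CH223191 lay close to each other in most members. Over 38 genes, which share libraries and depth within each comparison, Pearson's r between the log2 ratios with DMSO and with CH223191 was 0.886 and Spearman's rho was 0.890. The median absolute difference between the 2 ratios was 0.16 for the members and 0.27 over all genes kept. Over the 35 members with a mean of 100 reads or more it was 0.15, and over the 9339 such genes it was 0.20. In both comparisons 34 of 38 members, Adm among them, were above 0, beside 39.3% of all genes, and 30 had their whole interval above 0. The largest differences between the 2 ratios were those of Adm, at 1.61, and Gapdh, at 1.57.

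**Figure D3:**
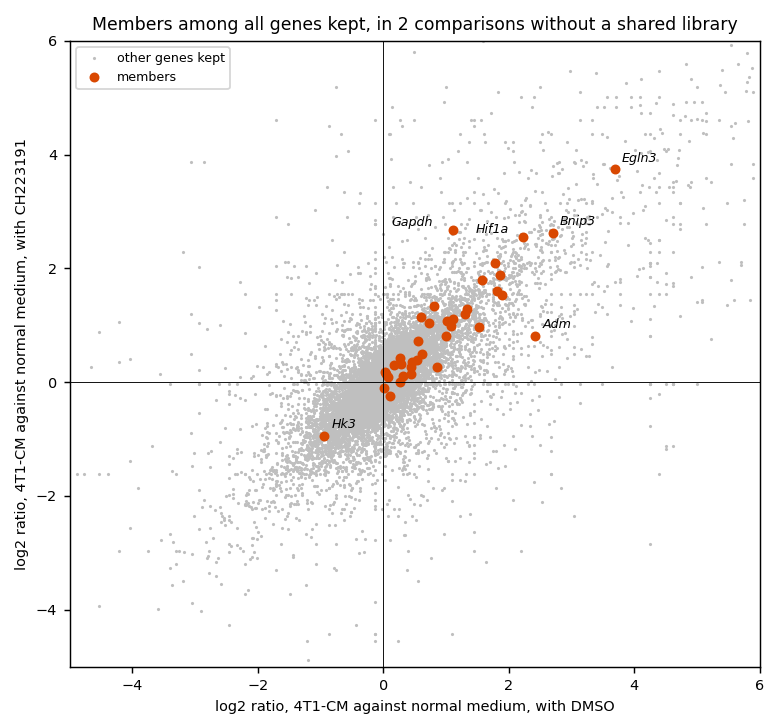
Log2 ratio of 4T1-CM against normal medium with DMSO (horizontal) and with CH223191 (vertical) for each member (large points) and every other gene kept (small points). The axes leave out 53 genes, and most members lie along the diagonal in the upper right, apart from Gapdh above it and Adm below it. Hk3 is in the lower left, and Slc2a3, Aldoa and Higd1a lie slightly below 0 on the vertical axis alone.

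CH223191 itself was followed by small differences in most members. In normal medium 0 of 38 members were at least 2-fold higher and 0 lower, beside 4.84% and 3.31% of all genes. In 4T1-CM 1 member, Gapdh, was at least 2-fold higher, beside 2.80%, and 0 were lower, beside 2.62%. The median log2 ratio of the members was 0.04 in each medium, or -0.01 in normal medium when scaled by total counts, and 33 of 38 lay within 0.5 of 0 in both. In normal medium the largest ratios away from 0 were those of Adm at 0.74 on 4 and 7 reads, Aldoc at 0.64 (0.46 to 0.82), Gapdh at 0.59 (0.27 to 0.91), Mif at 0.55 (0.46 to 0.64) and Egln1 at -0.54 (-0.66 to -0.43). In 4T1-CM the ratios of Aldoc, Mif and Egln1 were 0.06, 0.00 and -0.01. For Hif1a the inhibitor's ratio was -0.18 without and 0.16 with 4T1-CM, and for Ero1l -0.32 and 0.00. Without replicates, differences of this size cannot be told from the spread between cultures.

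**Figure D4:**
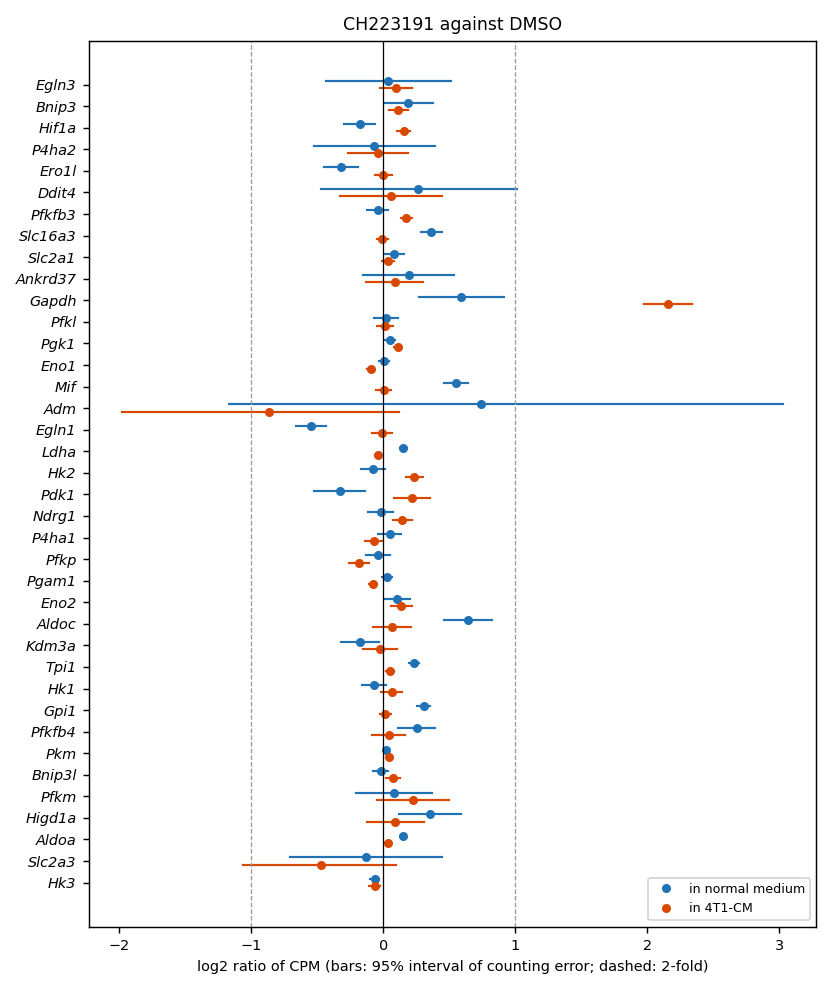
Log2 ratio of each member between CH223191 and DMSO on the horizontal axis, in normal medium (blue) and in 4T1-CM (red), in the order of the plot of the responses to 4T1-CM. Bars are 95% intervals of counting error, dashed lines mark a 2-fold difference, and only Gapdh in 4T1-CM, at 2.15, lies beyond one of them.

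An additive fit of edgeR over the 4 libraries had medium and inhibitor as terms. It takes the effect of 4T1-CM to be equal with DMSO and CH223191 and leaves 1 residual degree of freedom. No condition has a replicate, so the cultures with DMSO and with CH223191 stand in for replicates. The p-values therefore do not measure the spread between cultures of a condition in this fit. By its quasi-likelihood test with Benjamini-Hochberg adjustment over all genes kept, 25 members were higher with 4T1-CM, beside 16.4% of all genes, and 1, Hk3, was lower, beside 16.2%. The adjusted p was 4.83e-08 for Egln3, 1.81e-07 for Bnip3, 7.86e-07 for Hif1a, 2.88e-06 for Ero1l and 0.000193 for Hk3. It was 0.0548 for Kdm3a, 0.0756 for Adm, 0.565 for Pkm and 0.757 for Aldoa. For CH223191 the same test called 0 members, beside 0.0802% of all genes, and 2, Gapdh and Aldoc, had an unadjusted p under 0.05, beside 6.41% of all genes. The smallest adjusted p of a member was 0.139, for Gapdh, whose log2 difference was 1.48 in this fit.

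Gapdh is the usual reference gene of such work, and its values here depend on where its reads were counted. It lies on chromosome 6 (125161715 to 125166467, minus strand) and had 136, 204, 322 and 1331 reads. Its level per kilobase, between 2.07 and 19.8 CPM, was below that of Tpi1, at 234 to 330 CPM, which encodes the enzyme just before it. The table also lists processed pseudogenes of Gapdh, and 85 entries, pseudogenes that each share at least 100 words of 50 bases with it, were counted as its copies. They held 98.2%, 97.9%, 97.6% and 91.9% of the reads of the family, and most of these were on Gm13394 on chromosome 2 (28933610 to 28934609, minus strand), which had 7241, 8905, 12212 and 14141 reads. In the GENCODE M21 transcripts, Gm13394 aligned without gaps to 1000 of the 1080 bases of the longest coding sequence of Gapdh and differed from it at 1 of them, A424C, counted from the first coding base of Gapdh. A stretch of 40 bases around this difference, which is in capitals, is shown from each gene, from base 404 to 443 of the coding sequence of Gapdh and from base 326 to 365 of Gm13394.
Gapdh: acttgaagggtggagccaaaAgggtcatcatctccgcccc
Gm13394: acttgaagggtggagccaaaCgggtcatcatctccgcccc

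With the reads of the copies added, Gapdh had 7642, 9517, 13174 and 16393 reads. The order of the 4 libraries was that of Gapdh alone. The log2 ratio for 4T1-CM was then 0.65 with DMSO and 0.75 with CH223191, in place of 1.11 and 2.67. The ratio for CH223191 in 4T1-CM was 0.42, in place of 2.15, so that it was no longer past 2-fold. Gm13394 alone had ratios of 0.62 and 0.64 for 4T1-CM and of 0.30 and 0.32 for CH223191.

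Eno1 also shares its reads. Eno1b, Gm4735 and Gm5855 held 39.0%, 38.4%, 36.5% and 37.2% of the reads of the family, and Gm4735 differed from the 1305 coding bases of Eno1 at 5 of 1302 aligned. With the copies added, the log2 ratio of Eno1 for 4T1-CM was 1.02 with DMSO and 0.95 with CH223191, in place of 1.08 and 0.98. The value with DMSO was then below the interval of Eno1 alone, 1.05 to 1.11. For Pgk1, Mif and Bnip3, which share 53.9%, 50.9% and 47.2% of their words with other genes, the copies held under 1% of the reads. Their ratios moved by less than the width of their intervals, and Gapdh was the member whose ratios moved most with the copies.

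**Figure D5:**
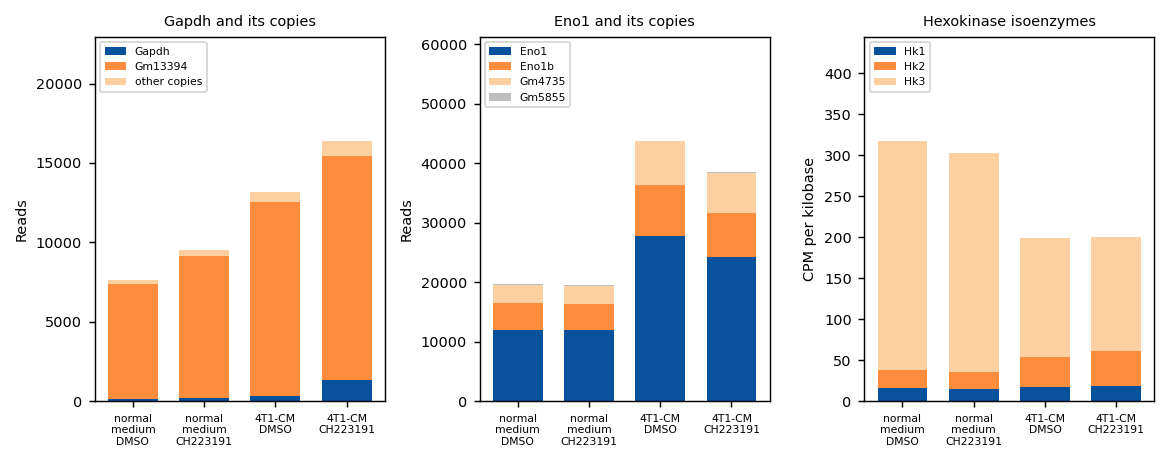
Reads of Gapdh and of Eno1 with those of their copies in each library (left and middle), and the level of the 3 hexokinases in CPM per kilobase (right), as stacked bars starting at 0. Gm13394 holds most of the Gapdh reads in each library, Eno1 keeps more than its copies, and Hk3 is the largest part of the hexokinases, with shares of 88.3%, 88.3%, 73.2% and 69.8%.

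Other genes known to be induced by low oxygen were counted by the same rule. Of 18 such genes outside the members 17 were kept, of which Car12, Loxl2 and Stc2 reached 10 reads with 4T1-CM alone, so that their direction was fixed by the filter. Of the other 14, 8 were at least 2-fold higher with 4T1-CM in both comparisons, beside 8.18% of all genes, with a median log2 ratio of 1.26 with DMSO and 1.15 with CH223191. Vegfa, the growth factor of blood vessels, had 349, 508, 5165 and 6406 reads with log2 ratios of 3.75 and 3.62. Hilpda, which keeps lipid in droplets, had 1097, 1805, 4204 and 4813 reads with ratios of 1.80 and 1.38, and Ak4, Mxi1, Ccng2, Narf and Fam162a had ratios between 1.05 and 1.63. Plod2 and Loxl2, which modify collagen, had 9, 16, 76 and 84 reads and 5, 8, 122 and 87 reads. Car12 and Stc2 had 20 and 15 reads in 4T1-CM with DMSO and at most 2 in normal medium. Not all genes of the list were higher: Bhlhe40 had log2 ratios of -0.33 and -0.30, and Car9 of -0.10 and 0.13. Angptl4 had 22, 111, 19 and 18 reads with log2 ratios of -0.34 and -2.62, past 2-fold lower with CH223191. In normal medium its log2 ratio for CH223191 against DMSO was 2.31.

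The neighboring pathways had lower medians than the 0.77 and 0.81 of the 38 members. The 12 glycolytic genes outside the members that were kept had medians of -0.05 and -0.01. Of 10 genes of pyruvate entry to mitochondria none was past 2-fold in both, with a median of -0.13 and -0.08. The 17 genes of the TCA cycle had medians of -0.22 and -0.25, and 14 of 17 were below 0 in each comparison. The 8 genes of the pentose phosphate pathway had medians of -0.30 and -0.37, and G6pdx, which opens it, had ratios of -0.37 and -0.77. The 12 genes of gluconeogenesis and glycogen had medians of 0.45 and 0.53. The 17 members from hexokinase to lactate dehydrogenase had 0.46 and 0.32, so they were not above these 12 genes in both comparisons. Among the 12, Gys1, the glycogen synthase, was at least 2-fold higher in both. It had 410, 405, 1611 and 1618 reads and ratios of 1.84 and 1.97, and Fbp1 had 17, 18, 3 and 3 reads.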

How the data were processed

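RNA sequencing libraries of 4 cultures, 1 per condition, were grouped by their GEO labels. The values that the authors deposited are raw read counts, 1 whole number for each gene and library. The submitters' processing notes name HISAT2 2.0.5 and DESeq2, and the study's methods name FeatureCounts for its alveolar macrophages. Whether it also counted these libraries, its strand setting and its treatment of reads that match several places are not given in the sources used here. Table coordinates equalled GENCODE M21 (GRCm38) for 37 of 38 members. Genes that reached 10 reads in any library were scaled with TMM (edgeR 4.0.16, R 4.3.3), and compared as log2 ratios after a prior count of 0.5. Where a symbol was repeated, its entry with most reads kept the symbol, and the other 103 took their identifiers. Called means at least 2-fold, since with 1 library per condition 2 libraries cannot be tested against each other, and p-values come from an additive edgeR fit alone. Every member was named, and from the other lists the genes past 2-fold in both comparisons of a pair, with further genes chosen after their values were seen. The members, lists and tests were chosen with earlier results of these data known. Copies were pseudogenes or retrotransposed genes sharing at least 100 words of 50 bases with a member, and second entries of a member's own symbol. Other entries sharing words with a member, such as antisense or protein-coding genes, were not added. Promoter sequences are those of RefSeq (GRCm38.p6). The procedure was tested on simulated data. Python 3.11.15 with numpy 2.4.6, pandas 2.3.3, scipy 1.17.1 and matplotlib 3.10.9 was used. Alternatives were DESeq2 1.42.0 size factors, total counts, other filters, 5 as the prior count, protein-coding genes, added copies, and an additive edgeR fit.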

Additional observations from a re-analysis of the deposited data

Results flagged for a closer look

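For 3 members the difference between CH223191 and DMSO went opposite ways in the 2 media, with both intervals of counting error away from 0. The difference between the media was not tested, since each condition has 1 library. For Hif1a it was -0.18 on the log2 scale without 4T1-CM and 0.16 with it, a difference of 0.34. For Ldha it was 0.15 and -0.04, a difference of -0.19. For Pdk1 it was -0.33 and 0.22, a difference of 0.55.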

How the results depend on the processing

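Alternatives were DESeq2 size factors, total counts, no filter, 10 reads in every library, 5 as the prior count, protein-coding genes alone and added copies. Of 1060 values of single members under them, 1030 moved by less than their interval of counting error and 30 moved by more. Of the 30, 18 moved with total counts. Values near 0 could change sign with total counts, as did the ratio of Aldoa for 4T1-CM with DMSO. The median of the members for CH223191 in normal medium went from 0.04 to -0.01. The median of all genes shifted by at most 0.06 under another scaling. With total counts Pgk1 had a log2 ratio with DMSO of 0.98, under 2-fold, and with at least 10 reads in every library, which leaves out Adm, Ldha had 1.02. With the reads of copies added, 0 members passed 2-fold upward under CH223191 in 4T1-CM, in place of 1, since the reads of Gapdh were joined with those of its copies. The additive edgeR fit called 25 members higher and 1 lower with 4T1-CM, in place of 13 and 0 past 2-fold in both comparisons, by a threshold on adjusted p and not on fold. No paired analysis was possible because the labels give no replicate numbers. The filter moved the counts over all genes most. At least 10 reads in every library kept 11765 genes, of which 586 were higher and 305 lower in both comparisons of 4T1-CM. No filter kept 21917 genes and gave 2017 and 900, in place of 1122 and 464 of 13715. Between these filters the genes past 2-fold ranged from 849 to 4601 higher and 500 to 2587 lower with DMSO, from 868 to 4358 and 677 to 2995 with CH223191, from 226 to 2815 and 89 to 2260 for CH223191 in normal medium, and from 83 to 2583 and 53 to 2688 in 4T1-CM. Depth limits Adm, Ddit4 and Slc2a3 among the members, which had between 4 and 117 reads.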
